A study of Mus musculus with 4 samples.

Results

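Endothelial cells made up 990 of the 9609 retained cells (10.3%) in a sort of mouse liver that was set for CD45+ monocytes and macrophages. They were chosen by transcripts: a cell was kept as endothelial when it held at least 1 UMI (a counted molecule) of at least 4 of the 8 genes Kdr, Ptprb, Clec4g, Oit3, Cdh5, Ehd3, Plpp3 and Bmp2. Cells were retained with 200 or more genes and no more than 10% mitochondrial UMIs. All libraries came from livers of male wild-type C57BL/6 mice, bought at 8 weeks of age and matched for weight, after 6 weeks on a normal control diet (NCD, 2 libraries) or a methionine/choline-deficient diet (MCD, 2 libraries), which produces fatty liver with inflammation. The gate of the sorter took 7AAD-negative, CD45+, Ly6G-negative cells with intermediate CD11b, while the F4/80 level is low in the series text and high in the sample labels. The labels do not say if each library came from 1 mouse or several, so every p-value measures only the spread between these libraries. No label gives a preparation batch and each library belongs to 1 diet, so diet and batch cannot be told apart.

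Liver sinusoidal endothelial cells line the narrow vessels between the plates of hepatocytes. Open pores (fenestrae) and the lack of a continuous basement membrane let plasma reach the hepatocytes, and scavenger receptors such as Stab1, Stab2, Lyve1 and Mrc1 clear waste molecules from the blood. Endothelium near the central vein secretes Wnt2, Wnt9b and Rspo3, which set the zonation of hepatocyte metabolism, whereas endothelium near the portal tract carries arterial and Notch genes such as Dll4 and Efnb2. In chronic liver injury these cells can lose fenestrae and gain features of continuous capillaries.

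Each of the 8 gate genes has a known place in endothelium. Kdr is the main VEGF receptor, Ptprb the endothelial phosphatase that opposes Tie2, and Cdh5 the junctional VE-cadherin. Clec4g is the sinusoidal lectin LSECtin, Bmp2 a ligand that controls hepatocyte iron sensing, Plpp3 a phosphatase of lysophospholipids, and Ehd3 a membrane-trafficking ATPase. Upstream sequence was held for 4 of them (Kdr, Clec4g, Ehd3 and Plpp3), and for 12 of 19 names looked up, from RefSeq on GRCm38.p6. The 250 bases before the start were searched on both strands for 2 motifs. The ETS motif, of a factor family that drives endothelial genes, was spelled AGGAAG. The other motif searched was that of GATA factors, spelled AGATAA. Clec4g is shown because it held 3 ETS matches, 2 of which overlap by 2 bases, Plpp3 as a gate gene with 1 match, and Eng, which carries the diet result below, with 2 matches. Capitals mark the ETS matches; the windows are chr8:3720652-3720901 (minus strand), chr4:105157097-105157346 (plus) and chr2:32646345-32646594 (plus).
Clec4g: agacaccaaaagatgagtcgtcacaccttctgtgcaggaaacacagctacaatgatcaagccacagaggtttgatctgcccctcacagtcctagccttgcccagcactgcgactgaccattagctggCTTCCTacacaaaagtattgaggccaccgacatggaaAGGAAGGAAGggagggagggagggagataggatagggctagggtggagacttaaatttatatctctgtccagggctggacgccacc
Plpp3: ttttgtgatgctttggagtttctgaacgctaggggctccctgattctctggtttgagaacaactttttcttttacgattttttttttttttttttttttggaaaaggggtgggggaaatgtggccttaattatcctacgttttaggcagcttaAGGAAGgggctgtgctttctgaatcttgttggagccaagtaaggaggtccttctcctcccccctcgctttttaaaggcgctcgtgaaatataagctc
Eng: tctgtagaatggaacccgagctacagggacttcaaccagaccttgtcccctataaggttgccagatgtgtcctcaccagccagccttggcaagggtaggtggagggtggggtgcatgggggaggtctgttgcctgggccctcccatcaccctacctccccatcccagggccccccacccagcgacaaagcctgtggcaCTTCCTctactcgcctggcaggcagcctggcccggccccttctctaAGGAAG
The ETS motif was present in 33.0% of the 421 upstream windows of genes enriched in the endothelial cells and in 29.5% of all 32851 windows. The GATA motif was present in 5.94% and 9.99%, and in none of the 12 matched windows. Kdr and Ehd3 held neither set of letters. These matches are letters in a window and not measured binding sites.

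The gate separated most cells clearly. Of all retained cells, 6553 had none of the 8 genes, 90 had 3 and so stood just outside the rule, 48 had 4 and stood just inside, and 704 had all 8. Among the 990 endothelial cells, 849 (85.8%) had 7 or 8 gate genes. On MCD the cells just inside were unlike the rest. In MCD replicate 2 the 29 cells with 4 gate genes had 0.0812% of their UMIs in 24 pan-endothelial genes that the rule did not use, the 15 with 5 had 0.0783% and the 13 with 6 had 0.166%, against 0.941% in the 197 cells with all 8. In MCD replicate 1 the 4 cells with 4 gate genes had 0.0630%, against 0.807% in the 87 cells with all 8. On NCD the cells with 4 gate genes had 0.471% and 0.241%, against 0.601% and 0.751% with all 8.

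**Figure D1:**
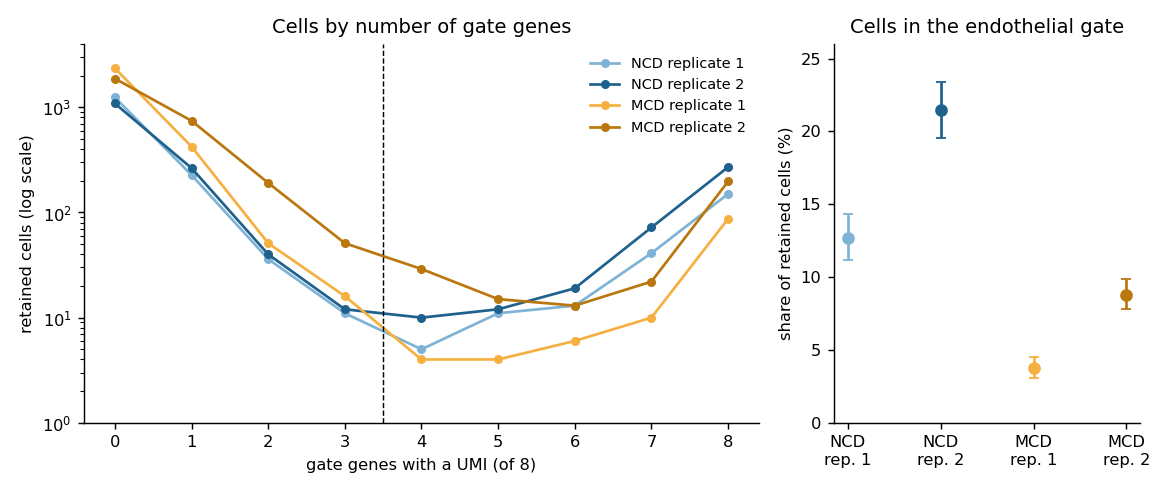
Number of retained cells (log axis) by the number of gate genes with a UMI (0 to 8), and, at right, the endothelial share of retained cells with its exact 95% interval, by library. Counts are lowest between 4 and 6 genes and higher at 8; the dashed line is the gate, and both MCD shares lie below both NCD shares.

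The endothelial share of retained cells was 12.7% (220 of 1735; exact 95% interval 11.1 to 14.3) in NCD replicate 1 and 21.4% (383 of 1786; 19.6 to 23.4) in NCD replicate 2. It was 3.76% (111 of 2950; 3.11 to 4.51) in MCD replicate 1 and 8.80% (276 of 3138; 7.83 to 9.84) in MCD replicate 2. Both MCD libraries lay below both NCD libraries, with means of 6.28 ± 3.56% and 17.1 ± 6.20% (SD, n = 2 libraries each). The exact two-sided permutation test over libraries gave p = 0.333, the smallest value that 2 against 2 allows. Without endothelial cells that had a Ptprc UMI the diets overlapped: the shares were 2.26% and 5.97% on NCD and 0.665% and 2.52% on MCD, with means of 4.11% and 1.59% (exact permutation p = 0.667). The share followed the quality filter: with at most 20% mitochondrial UMIs the means were 23.7% on NCD and 6.88% on MCD, and with at most 5% they were 2.17% and 4.46%, on 4 and 5 NCD cells. Of the NCD barcodes with 4 or more gate genes, 58.6% and 50.3% failed the filters, against 17.2% and 12.7% on MCD, so the shares apply to cells within the filter. With each cell thinned to 1000 UMIs before gating the means were 14.2% and 4.29%.

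MCD libraries were deeper, with 32975974 and 37772284 UMIs in all against 7518597 and 7428431 on NCD. The endothelial cells summed to 1334241 and 1857983 UMIs in NCD replicates 1 and 2 and to 1445165 and 3864631 in MCD replicates 1 and 2, and their median cell held 4287.5, 3887, 9366 and 13084 UMIs. On NCD this median was above that of the other retained cells (2055 and 2050 UMIs), and in MCD replicate 1 below it (12063). Libraries shared 4 to 12 barcodes per pair, and 1 shared barcode was endothelial in both libraries.

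Markers that the rule did not use matched the label. Summed over the 24 pan-endothelial genes, the endothelial cells had 0.587 to 0.736% of UMIs across libraries and the other cells 0.0237 to 0.0284%. Stab2, a hyaluronan scavenger receptor of the sinusoid, measured 484 and 515 CPM (UMIs of the summed cells, scaled to an equal total per library) on NCD and 633 and 560 CPM on MCD, against 2.88 to 9.01 CPM in the other cells. Pecam1, the endothelial adhesion molecule CD31, measured 266 and 344 CPM on NCD and 278 and 249 CPM on MCD, against 7.97 to 28.2 CPM in the other cells. Because the gate chose the cells, these contrasts are a description.

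The genes with the highest ratio to the other cells in their weakest library (20 CPM added to both) were Timp3, a matrix protease inhibitor, at 20.9-fold, Plpp1 at 19.4-fold, the water channel Aqp1 at 19.3-fold and the secreted Igfbp7 at 18.8-fold. Sinusoidal genes followed, among them the coagulation factor gene F8 at 15.9-fold, the orphan receptor Gpr182 at 15.9-fold, the secreted nuclease Dnase1l3 at 14.9-fold and the mannose receptor Mrc1 at 14.0-fold. Across libraries Mrc1, also a macrophage gene, measured 795 to 1085 CPM in the endothelial cells and 14.2 to 47.5 CPM in the other cells, which were sorted as monocytes and macrophages. Lymphatic markers were scarce: Prox1, the lymphatic master regulator, measured 0, 2.69, 0.692 and 0.259 CPM in NCD replicates 1 and 2 and MCD replicates 1 and 2. Flt4, which sinusoidal endothelium shares with lymphatics, measured 212 to 309 CPM. Vwf, a gene of larger vessels, had a UMI in 55 of 990 cells (5.56%). The 18 hepatocyte markers took 0.0111 to 0.0154% of endothelial UMIs, below the 0.0208 to 0.0262% of the other cells, with 0 to 6 of the markers at 0. The 14 stellate and fibroblast markers took at most 0.00758%, with 6 to 9 of them at 0.

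Myeloid transcripts accompanied the endothelial ones in all 4 libraries. Ptprc, which encodes the CD45 antigen that the sort selected, had a UMI in 84.1% and 76.8% of endothelial cells on NCD and in 82.9% and 73.2% on MCD. Lyz2, the lysozyme of monocytes and macrophages, had a UMI in 77.3%, 71.8%, 91.0% and 94.2%. At 1000 UMIs per cell, Ptprc was found in 57.5%, 51.7%, 37.6% and 38.7% of endothelial cells and in 57.2%, 61.1%, 62.9% and 60.7% of other cells. Lyz2 was found at that depth in 63.6%, 59.7%, 58.7% and 65.7% of endothelial cells, and in 34.6% and 24.1% of the 27 and 29 MCD cells that passed a B-cell gate of 4 genes, a type that should lack it. The exact 95% intervals of the 2 types overlapped in MCD replicate 1 (48.9 to 68.1% and 17.2 to 55.7%) and did not in MCD replicate 2 (59.7 to 71.3% and 10.3 to 43.5%). Summed over cells the order turned in MCD replicate 1, with Lyz2 at 5711 CPM in endothelial cells and 6891 CPM in B cells, against 8294 and 1903 CPM in MCD replicate 2. The B cells' median depth was 4119 and 4485 UMIs, and NCD had no such cell. Summed over 17 myeloid genes, endothelial cells had 1.44%, 1.32%, 1.80% and 2.05% of their UMIs, against 2.15%, 2.25%, 3.21% and 3.52% in the other cells.

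Within the endothelial cells the myeloid and endothelial transcripts varied in opposite directions. In all, 696 of 990 cells (70.3%) had UMIs of both Ptprc and Lyz2 and 107 (10.8%) had neither, while 611 had at least 3 Ptprc UMIs. Cells with both held a median of 7399 UMIs and those with neither 2256, so detection moved with depth. The median share of UMIs in the pan-endothelial genes was 0.633% in cells with both and 1.68% in cells with neither. Across cells, Spearman's rho between the myeloid share and the gate-gene share was -0.63 (220 cells) and -0.68 (383) on NCD and -0.80 (111) and -0.75 (276) on MCD, as a description: both shares have the same denominator and the gate genes chose the cells. Cells above their library's median myeloid share were also deeper, with medians of 5898 against 3105 UMIs in NCD replicate 1 and 17559 against 6065 in MCD replicate 2. Whether a barcode held an endothelial cell with an attached or co-encapsulated leukocyte, or free RNA, was not tested.

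**Figure D2:**
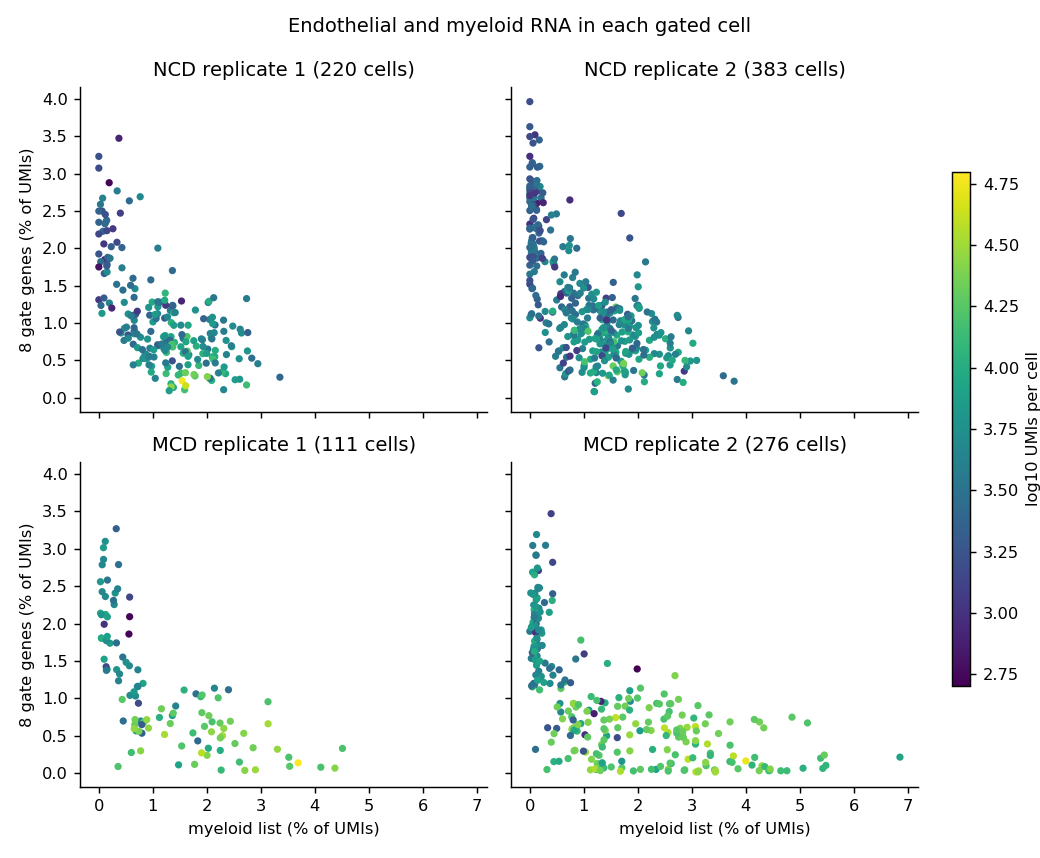
Each point is an endothelial cell, with the percentage of its UMIs in myeloid genes and in gate genes, coloured by log10 UMIs per cell, 1 panel per library. Cells spread from high gate-gene and low myeloid share to the reverse, in every library.

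Summed per library, 3173 of the 9581 genes tested (33.1%) passed the diet threshold in endothelial cells (edgeR quasi-likelihood F test, Benjamini-Hochberg adjusted p under 0.05), 1734 higher (18.1%) and 1439 lower (15%) on MCD. Every adjusted p below is from this test, every fold change is MCD over NCD on the log2 scale with its standard error (SE), and n is 2 libraries per diet. The count followed the cells used: it was 522 of 3238 genes (311 higher, 211 lower) after leaving out cells with a Ptprc UMI. After thinning before gating it was 563 of 3435 (334 higher, 229 lower). Among cells of lower myeloid share (at or below their library's median) it was 1197 of 7142 (688 higher, 509 lower). List counts in these settings below are to be read beside these totals. Those of the main fit are to be read beside 18.1% higher and 15% lower over all genes. Because myeloid RNA was in the sums, results are given first for genes whose endothelial level was at least 8 times that in other cells and at least 20 CPM, 438 genes in all. Of the 430 of these tested, 72 rose (16.7%) and 140 fell (32.6%), with a median of -0.32 against 0.01 over all genes. That balance turned over in the cells without a Ptprc UMI (84 higher, 20 lower of 394 tested, median 0.19), and after thinning before gating (67 higher, 13 lower of 326), so no direction is given for the endothelial genes as a whole. Among cells at or below their library's median myeloid share the balance was 68 higher and 52 lower. The cells without a Ptprc UMI numbered 35 and 89 on NCD and 19 and 74 on MCD. Only 23 and 67 of them on NCD and 3 and 14 on MCD also lacked a Lyz2 UMI. Leaving out Ptprc-positive cells thus left some myeloid RNA on both diets. The MCD cells were deeper, so the parts with a Lyz2 UMI are not comparable between diets and do not measure its amount. A named gene kept its result when call and direction were the same, or when it was called in neither fit. Of the named genes tested, 37 of 58 kept their result without Ptprc-positive cells and 51 of 69 with thinning before gating. Among cells of lower myeloid share 63 of 81 kept it. Values in these settings are given below for many, but not all, of the genes that changed. Removing the trend of fold change with GC content ended the calls of 18 of 90 named genes, not all of which are listed. Among them were Gja4 (0.28), Cd300lg (0.39), Lyl1 (0.47), Wnt9b (0.61), Vwf (1.14), Cav1 (-0.51), Efnb2 (-0.56) and H2-Ab1 (0.56).

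Aqp1 and Eng rose in every setting tried here other than the limit of 5% mitochondrial UMIs. Aqp1, the main water channel of these cells, measured 488 and 525 CPM on NCD and 1670 and 1580 CPM on MCD. The diets did not overlap, and the rise was 1.60 ± 0.14 (SE; adjusted p = 4.5e-05). At 1000 UMIs per cell, Aqp1 was seen in 34.1% and 41.6% of NCD and 80.7% and 65.3% of MCD endothelial cells, against 0.457 to 1.10% of other cells. Eng encodes endoglin, the co-receptor for TGF-beta family ligands. It measured 226 and 241 CPM on NCD and 652 and 770 CPM on MCD, without overlap, and rose by 1.53 ± 0.16 (adjusted p = 0.00011). Eng was the largest rise among 14 tested genes of the BMP and TGF-beta response, of which 4 rose and 2 fell (1 and 0 of 10 without Ptprc-positive cells). The inhibitor-of-differentiation genes Id1, Id2 and Id3 made up the other rises (0.71, 0.52 and 0.72). Without Ptprc-positive cells Id3 was at 0.01 and Id2 at -0.22, and all 3 genes lost the call there (Id1 0.68). Among cells of lower myeloid share Id1, Id2 and Id3 were at 0.25, 0.59 and 0.22, none past the threshold.

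Genes of continuous, capillary-type endothelium and its matrix went both ways. Of 14 tested genes on capillarisation and matrix, 4 rose and 2 fell (18.1% and 15% over all genes), with a median of -0.05. Plvap, which forms the diaphragms of vesicles and fenestrae, measured 34.5 and 38.8 CPM on NCD and 87.9 and 131 CPM on MCD. It rose by 1.54 ± 0.23 (adjusted p = 0.00071). Igfbp7 measured 495 and 651 CPM on NCD and 1238 and 1259 CPM on MCD, a rise of 1.04 ± 0.16 (adjusted p = 0.0008). Nid1, a basement membrane glycoprotein, went the other way, from 136 and 186 to 89.3 and 79.7 CPM (-1.03 ± 0.17; adjusted p = 0.0013). Nid1 lost its call without Ptprc-positive cells (-0.49) and with thinning before gating (-0.27). Vwf, which marks larger vessels and capillarised endothelium, measured 11.2, 7.54, 19.4 and 39.1 CPM and rose by 1.71 ± 0.39, but not past the threshold without MCD replicate 2 (0.96) or NCD replicate 2 (1.40). Its UMIs came from 13, 13, 3 and 26 cells.

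Of the 24 pan-endothelial genes, 7 rose and 8 fell. The balance differed with fewer myeloid transcripts or equal depth: 8 rose and 1 fell without Ptprc-positive cells, 7 and 1 with thinning before gating, and 6 and 2 among cells of lower myeloid share. Cldn5, the tight-junction claudin, measured 92.9 and 115 CPM on NCD and 215 and 284 CPM on MCD, a rise of 1.19 ± 0.18 (adjusted p = 0.00093). Tie1, the orphan angiopoietin co-receptor, measured 55.5 and 65.1 on NCD and 145 and 134 CPM on MCD, a rise of 1.12 ± 0.16 (adjusted p = 0.00057). Both genes had non-overlapping diets. Tie1 was not past the threshold with thinning before gating (0.79) and both missed it once the GC trend across genes was removed (0.53 for Cldn5, 0.42 for Tie1). Pecam1 differed by -0.30 ± 0.15 (adjusted p = 0.16) with overlapping diets.

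Among 12 tested genes of sinusoidal scavenging, 3 rose and 2 fell (18.1% and 15% over all genes). With thinning before gating 3 rose and 0 fell of 11. Lyve1, the hyaluronan receptor that marks mid-lobular sinusoids, measured 250 and 414 CPM on NCD and 155 and 143 CPM on MCD. NCD replicate 2 was far above the other 3 libraries and the diets did not overlap, with a fall of 1.24 ± 0.20 (log2; adjusted p = 0.0012). Lyve1 was at -0.71 and not past the threshold with thinning before gating. Stab1, a receptor for oxidised lipoproteins and hyaluronan, measured 312 and 353 CPM on NCD and 615 and 562 CPM on MCD, a rise of 0.74 ± 0.14 (adjusted p = 0.0028), and 0.09 once the GC trend was removed. Stab2 was 0.17 ± 0.14 higher (adjusted p = 0.37), but passed without Ptprc-positive cells (0.94) and, in the other direction, with the GC trend removed (-0.44; adjusted p = 0.043). Cd300lg, a sialic-acid-rich endothelial receptor that binds lymphocytes, was 0.55 ± 0.15 higher (adjusted p = 0.017), a call lost without NCD replicate 1 (0.42) or MCD replicate 2 (0.51). Among 15 tested genes of sinusoidal identity, 7 rose and 3 fell, and 8 rose and none fell without Ptprc-positive cells. Gja4, the gap junction protein connexin 37, rose by 0.90 ± 0.19 (adjusted p = 0.0043), and Hpgd, which inactivates prostaglandins, fell by 1.10 ± 0.15 (adjusted p = 0.00042) but was at -0.49 without Ptprc-positive cells.

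**Figure D3:**
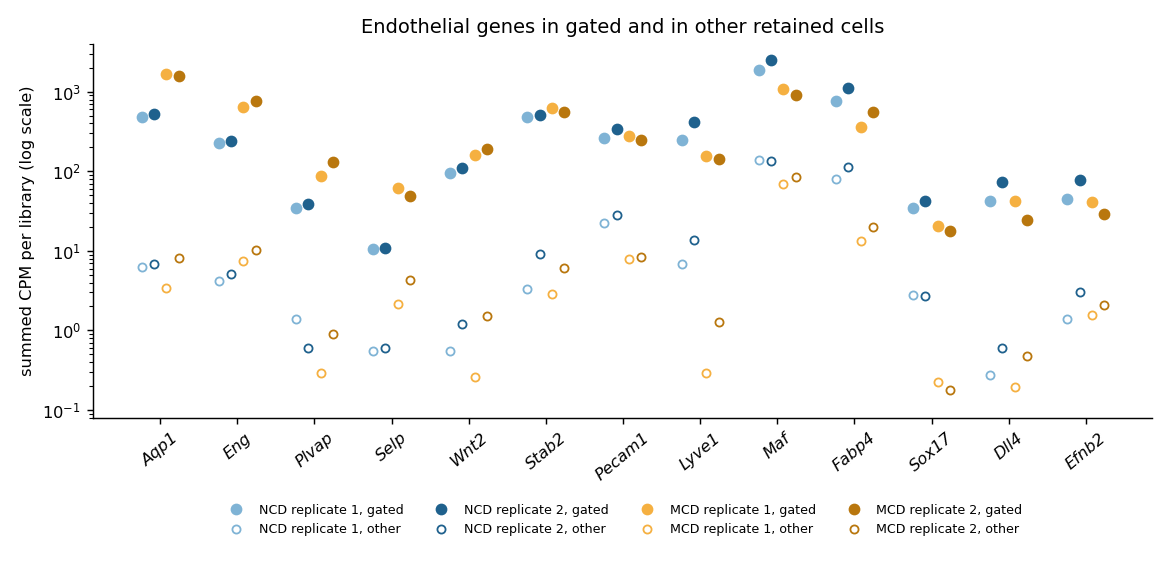
Level in CPM (log axis) of 13 genes in the endothelial cells (filled points, gated) and in the other retained cells (open points) of each library. Aqp1, Eng, Plvap, Selp and Wnt2 lie higher in both MCD libraries and Lyve1, Maf, Fabp4 and Sox17 lower, while Pecam1 and Dll4 overlap between diets.

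Pericentral genes included several rises. Of 10 tested, 4 rose and 1 fell (18.1% and 15% over all genes), and 5 did not pass, with a median of 0.25. Wnt2 encodes a central-vein signal to hepatocytes. It measured 95.9 and 110.3 CPM on NCD and 162 and 189 CPM on MCD, without overlap, and rose by 0.70 ± 0.16 (adjusted p = 0.0075), though not past the threshold without MCD replicate 2 (0.53). At 1000 UMIs per cell Wnt2 was seen in 12.6% and 12.2% of NCD and in 20.2% and 20.3% of MCD endothelial cells, against at most 0.220% of other cells. Wnt9b, the companion signal, measured 8.99 and 9.15 CPM on NCD and 18.7 and 24.6 CPM on MCD (1.23 ± 0.30; adjusted p = 0.01). This low gene lost its call without NCD replicate 2 (1.22) or MCD replicate 2 (0.92), by DESeq2 (1.18) and among cells of lower myeloid share (1.28).

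Selp, the P-selectin that captures leukocytes, had the largest rise of the list, from 10.5 and 10.8 to 62.3 and 48.6 CPM (2.27 ± 0.24; adjusted p = 0.00014). At 1000 UMIs it was seen in 0.935% and 1.06% of NCD cells and in 11.9% and 4.797% of MCD cells. Fabp4, a fatty acid-binding protein of endothelium and macrophages, was the fall, from 770 and 1133 to 356 and 560 CPM (-1.12 ± 0.23; adjusted p = 0.0042), and lost its call without Ptprc-positive cells (-0.57). Rspo3, an enhancer of Wnt signals, was not past the threshold and was seen at 1000 UMIs in 7.48%, 5.31%, 5.505% and 8.86% of cells.

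Of 10 tested periportal and arterial genes, 5 fell, 1 rose (Vwf) and 4 did not pass, with a median of -0.58. Without Ptprc-positive cells 1 of 7 fell and none rose, with thinning before gating 1 of 7 rose and none fell, and among cells of lower myeloid share 1 of 8 fell and none rose. Sox17, an arterial transcription factor, measured 34.5, 42.0, 20.8 and 17.9 CPM (-1.10 ± 0.22; adjusted p = 0.0038). Efnb2, the arterial ephrin ligand, measured 45.0, 78.6, 40.8 and 29.5 CPM (-0.97 ± 0.25; adjusted p = 0.012), and Dll4, the arterial Notch ligand, 42.0, 73.2, 42.2 and 24.3 CPM (-1.001 ± 0.28; adjusted p = 0.018). The diets overlapped for Dll4. None of these 3 genes passed among cells of lower myeloid share (-0.90, -0.57 and -0.86 for Sox17, Efnb2 and Dll4), and after thinning before gating they stood at -0.06, -0.62 and 0.01, and without Ptprc-positive cells at -0.98, -0.20 and -0.63, none past the threshold. Without NCD replicate 2, Efnb2 was at -0.51 and Dll4 at -0.53, neither past the threshold. The share of cells with a UMI of genes of both zones (Wnt2 or Rspo3 with Efnb2 or Dll4) was 8.64%, 10.2%, 32.4% and 25.7%, and these unthinned shares are not comparable between depths.

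Endothelial transcription factors fell more often than they rose in the main fit. Of 26 tested, 13 fell and 3 rose (15% and 18.1% over all genes), and 10 did not pass, with a median of -0.56. Endothelial-enriched genes as a class leaned the same way there: 32.6% fell and 16.7% rose, with a median of -0.32. With scaling on those enriched genes, 96 of them were higher and 54 lower. Maf, which specifies the sinusoidal fate, measured 1908 and 2503 CPM on NCD and 1097 and 904 CPM on MCD, without overlap. It fell by 1.22 ± 0.16 (adjusted p = 0.00042) and stayed below 0 and past the threshold in the cells without Ptprc UMIs (-0.84) and in cells of lower myeloid share (-1.05). The other cells held 69.7 to 140 CPM of Maf, which macrophages also use. Sox18, a factor of vessel and lymphatic identity, measured 98.9 and 183 CPM on NCD and 76.8 and 61.3 CPM on MCD (-1.15 ± 0.24; adjusted p = 0.0042), and lost its call without NCD replicate 2 (-0.64). Lyl1, a blood and endothelial factor that the other cells also carried at 22.03 to 78.8 CPM, was the largest rise (1.37 ± 0.21; adjusted p = 0.0008). Among cells of lower myeloid share 9 of 25 tested factors fell and none rose, and without Ptprc-positive cells 5 of 24 fell and 1 rose. With thinning before gating 3 of 20 fell and none rose.

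Ligands and receptors moved in both directions. Of 14 tested angiocrine genes, 5 rose and 2 fell (18.1% and 15% over all genes). Inhbb, an activin subunit almost absent from other cells (at most 0.42 CPM), went from 30.7 and 30.1 to 73.3 and 60.3 CPM (1.03 ± 0.19; adjusted p = 0.0021), with its call lost without Ptprc-positive cells (0.86) and with thinning before gating (0.97). Edn1, the vasoconstrictor endothelin, measured 35.2, 33.9, 4.15 and 12.4 CPM and fell by 1.88 ± 0.34 (adjusted p = 0.0021). It was not past the threshold among cells of lower myeloid share (-1.34). Tgfb1, which the other cells carried as strongly (448 and 462 CPM on MCD), rose by 1.48 ± 0.15.

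Of 12 tested genes around VEGF and Tie receptors, 3 rose and 4 fell (18.1% and 15% over all genes). None fell without Ptprc-positive cells (3 rose of 8), with thinning before gating (1 of 9) or among cells of lower myeloid share (3 of 11). Sema3f, a repellent ligand for neuropilin, measured 48.0 and 51.7 CPM on NCD and 125 CPM in both MCD libraries (1.25 ± 0.16; adjusted p = 0.00032), and 0.28 with the GC trend removed. Vegfc, the lymphatic growth factor, measured 10.5, 10.2, 3.46 and 1.29 CPM (-2.45 ± 0.50; adjusted p = 0.0041), and lost its call without NCD replicate 2 (-2.46) or MCD replicate 2 (-1.67). Of 11 tested Notch genes, 1 rose and 4 fell, and without Ptprc-positive cells none of 5 passed. The ligand Jag1 measured 31.5, 28.0, 4.84 and 7.50 CPM and fell by 2.205 ± 0.30 (adjusted p = 0.00043). The receptor Notch2 (-1.49 ± 0.15) and the target Hes1 (-0.88 ± 0.17) fell too. All 3 fell in the other cells as well (-1.54, -1.99 and -0.89), where 24.5% of 12124 tested genes were higher on MCD and 21.1% lower by the same test. Without Ptprc-positive cells Hes1 was at -0.07, not past the threshold.

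Of 12 shear-responsive genes, 3 rose and 5 fell. There was no excess of falls in 3 other settings: 2 rose and none fell of 9 without Ptprc-positive cells, 2 rose and 2 fell of 7 with thinning before gating, and none of 12 passed among cells of lower myeloid share. Cav1, the caveolar coat protein, measured 26.2, 26.4, 13.1 and 15.8 CPM (-0.89 ± 0.25; adjusted p = 0.018), a call lost without NCD replicate 2 (-0.91), by DESeq2 (-0.93) and among cells of lower myeloid share (-1.01). Klf4, the flow-induced factor, measured 723, 708, 409 and 443 CPM (-0.83 ± 0.14; adjusted p = 0.0017). Klf4 was at 0.43 without Ptprc-positive cells, the opposite direction, and at -0.47 among cells of lower myeloid share, past the threshold in neither. Of 13 tested adhesion and chemokine genes, 6 rose and 2 fell. Icam1, the leukocyte integrin ligand, measured 87.7 and 68.4 CPM on NCD and 209 and 220 CPM on MCD (1.39 ± 0.17; adjusted p = 0.00026). Icam1 stood at similar levels in other cells (205 and 173 CPM on MCD), and stood at 0.99 after thinning before gating, not past the threshold. Cxcl9, an interferon-gamma-induced chemokine, measured 459, 205, 98.3 and 108 CPM and fell by 1.75 ± 0.30, but was at -0.44 without Ptprc-positive cells and at -0.64 after thinning before gating, not past the threshold. Of 9 tested coagulation genes, 2 rose and 1 fell (18.1% and 15% over all genes). Tfpi, the tissue factor pathway inhibitor, was the fall (-0.89 ± 0.17; adjusted p = 0.0032), and was at -0.40 without Ptprc-positive cells and -0.48 after thinning before gating, past the threshold in neither.

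**Figure D4:**
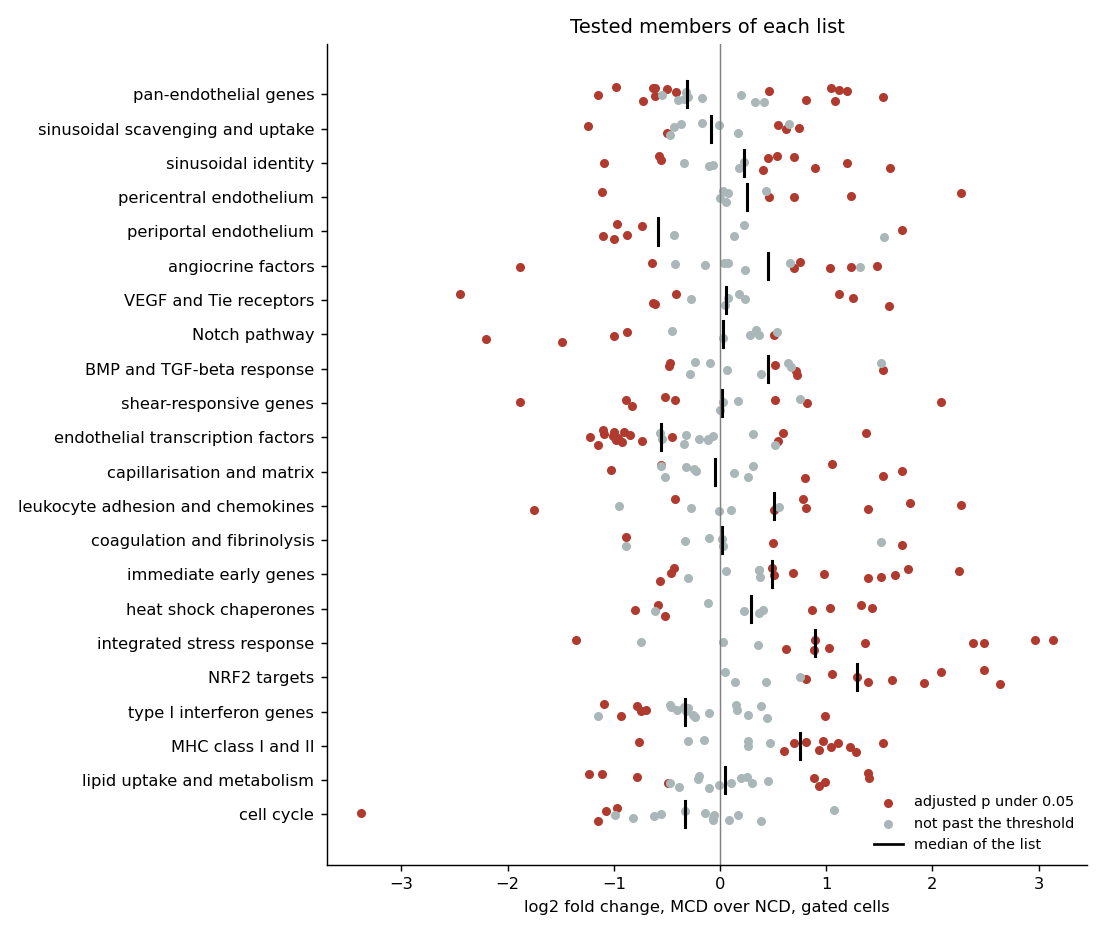
Log2 fold change (MCD over NCD) of every tested member of each gene list in endothelial cells, with red points past the threshold, grey points not past it, and a bar at the list's median. Transcription factors and periportal genes lie mostly below 0, and NRF2 and integrated stress response genes mostly above.

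Many NRF2 and integrated stress response genes rose, and the stress genes named here rose in the other cells too. Of 13 tested NRF2 targets (the antioxidant programme) 9 rose and none fell, with a median of 1.29. Ftl1, the ferritin light chain, measured 658 and 610 CPM on NCD and 4130 and 4219 CPM on MCD, a rise of 2.64 ± 0.15 (adjusted p = 1.1e-05). Other cells held 588 and 596 CPM of Ftl1 on NCD and 5664 and 5629 CPM on MCD. The metal-binding Mt1 measured 143, 164, 592 and 633 CPM, above the other cells (85.1, 94.95, 300.4 and 443 CPM) in every library, and rose by 1.92 ± 0.15. Ftl1 and Mt1 were past the threshold without Ptprc-positive cells as well (2.72 and 2.24). Hmox1, haem oxygenase, rose by 2.08 ± 0.17, and was at 0.46 among cells of lower myeloid share, not past the threshold. The integrated stress response is a programme set off by amino acid shortage among other stresses. Of its 13 tested genes 9 rose and 1 fell, with a median of 0.90. The full list of 18 genes took 0.347% and 0.331% of endothelial UMIs on MCD, below the 0.468% and 0.440% of the other cells. On NCD it took 0.234% and 0.222%, above the 0.172% and 0.189% of the other cells. Counts of this list in the settings with fewer myeloid transcripts are not reported here. The cystine transporter Slc7a11 rose by 2.49 ± 0.22 (30.7, 22.1, 182 and 131 CPM), Sesn2, a leucine sensor, by 2.39 ± 0.37, and Gdf15, a stress cytokine, by 2.96 ± 0.36. Among 17 immediate early genes 9 rose and 3 fell, led by Gadd45b (2.25 ± 0.34), and among 12 heat shock genes 4 rose and 3 fell, led by Hspa1a (1.44 ± 0.20). The heat shock list turned over without Ptprc-positive cells, where 1 rose and 4 fell of 11 and the median went from 0.29 to -0.67.

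Antigen presentation genes numbered 10 rises and 1 fall of 16 tested. Cd74, the invariant chain, measured 2323 and 1461 CPM on NCD and 5285 and 6332 CPM on MCD (1.54 ± 0.22), below the other cells in every library (2676 to 8733 CPM). Without Ptprc-positive cells Cd74 stood at -0.19 and the class II gene H2-Ab1, which rose by 1.11 ± 0.25, at -0.08. H2-T23, a class Ib gene higher in the endothelial than in the other cells of every library, rose from 208 and 187 to 490 and 520 CPM (1.28 ± 0.15; adjusted p = 0.00021), and stood at 2.36 and past the threshold without those cells. Of 22 interferon genes 1 rose and 5 fell, and among cells of lower myeloid share 1 rose and 1 fell of 21. Of 20 lipid genes 5 rose and 4 fell (18.1% and 15% over all genes). Abca1, the cholesterol exporter, measured 29.2 and 29.1 CPM on NCD and 94.1 and 72.5 CPM on MCD (1.41 ± 0.19; adjusted p = 0.00046), against 14.3 to 25.3 CPM in other cells. Of 17 cell cycle genes 4 fell and none rose, among them Ccnd1 (-1.15 ± 0.25), the G1 cyclin, which did not pass by DESeq2 (-1.21).

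The genes with the largest changes moved the same way in the other cells. The rise of Erdr1 (7.49, 8.07, 210 and 69.3 CPM; 3.97 ± 0.54), of the haptoglobin gene Hp (26.2, 35.0, 239 and 338 CPM; 3.16 ± 0.23) and of Ninj1, a mediator of membrane rupture (27.7, 19.9, 185 and 194 CPM; 2.94 ± 0.20), had counterparts of 3.68, 3.57 and 2.68 in other cells. Spp1, Lars2, Khk, Slpi, Prdx5, Chil3 and Cd63 also rose, by 2.57 to 2.95. Chil3, a secreted myeloid lectin, was at -0.36 and Slpi, a protease inhibitor, at 1.24 among cells of lower myeloid share, neither past the threshold. Spp1 was at 2.58 and not past the threshold without NCD replicate 2. Cd300e, a monocyte receptor, had the largest fall (85.4, 83.4, 2.77 and 8.28 CPM; -3.73 ± 0.28) and fell by 2.94 in other cells. Polr2l, Amd1, Hist1h2ap, B930036N10Rik, Tmcc1, Herc6 and Fcgr4 fell by 1.55 to 2.24 on the log2 scale; without Ptprc-positive cells Polr2l was at -1.25 and Tmcc1 at -0.82, past the threshold in neither.

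Dmd and Serpinh1 were the 2 endothelial-enriched genes among the 12 largest falls. Dmd, the dystrophin gene, measured 67.5 and 98.5 CPM on NCD and 24.2 and 16.6 CPM on MCD, without overlap, and at most 4.51 CPM in other cells. Dmd fell by 2.198 ± 0.23 in the endothelial cells (log2; adjusted p = 0.00013), and stayed past the threshold without Ptprc-positive cells (-1.81). Its difference term (3.97) was above 0, so on the log2 scale Dmd fell by more in the other cells, at those low levels. Serpinh1, the collagen chaperone HSP47, measured 120 and 195 CPM on NCD and 47.1 and 51.0 CPM on MCD, against at most 2.10 CPM in other cells (-1.75 ± 0.21; adjusted p = 0.00026). Without Ptprc-positive cells Serpinh1 stood at -1.24.

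**Figure D5:**
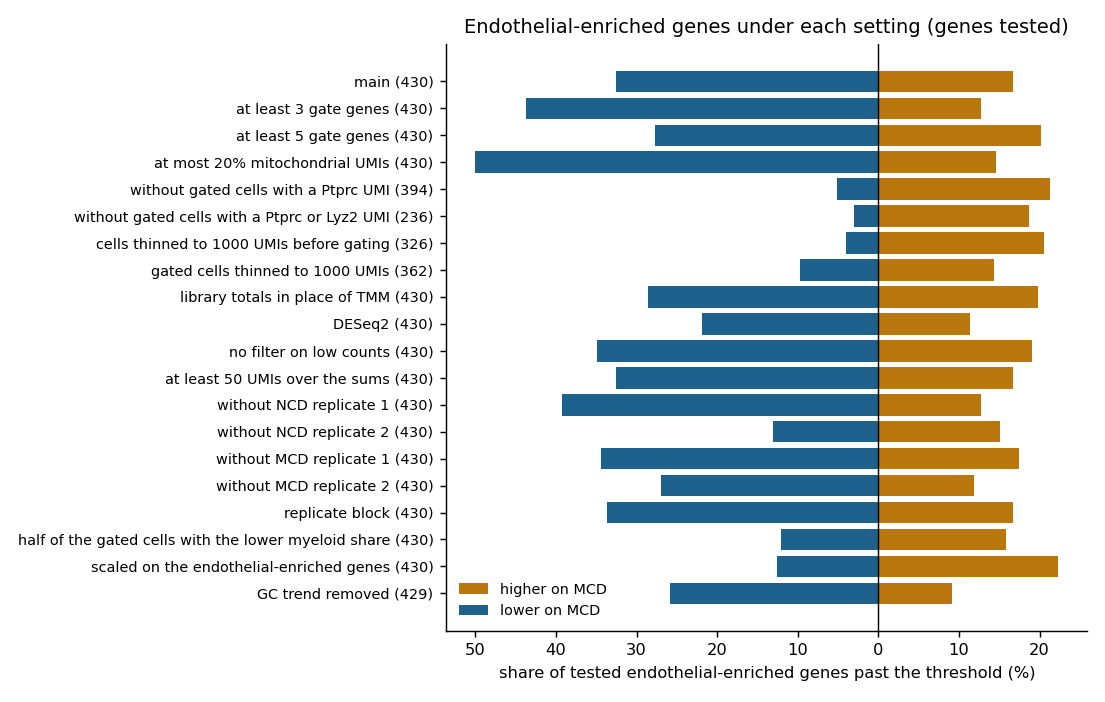
Share of tested endothelial-enriched genes past the diet threshold, lower to the left and higher to the right of 0, for each way of choosing, counting or scaling the cells, with the number of genes tested in brackets. Lower calls outnumber higher ones in the main analysis and higher ones outnumber lower ones without Ptprc-positive cells or with thinning before gating.

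Myeloid genes in the endothelial sums also differed by diet. Of 17 tested, 7 rose and 4 fell, with a median of 0.11. Without Ptprc-positive cells none rose and 3 fell of 9 (median -0.69). With thinning before gating 1 rose and 7 fell of 16 (median -0.19). Among cells of lower myeloid share 1 rose and 6 fell of 17 (median -0.69). Leaving out Ptprc-positive cells chose cells by a gene of this list. The setting on myeloid share chose them by the list itself, which holds Ptprc and Lyz2. Myeloid values in these 2 settings therefore describe that choice and give no diet direction. Lyz2 measured 3033 and 3043 CPM on NCD and 5711 and 8294 CPM on MCD (1.13 ± 0.19), and 4546, 4858, 13732 and 17333 CPM in the other cells. Lyz2 was at -0.12 without Ptprc-positive cells, 0.35 after thinning before gating and -0.81 among cells of lower myeloid share, past the threshold in none of them. Ptprc measured 1168, 1053, 764 and 705 CPM and fell by 0.68 ± 0.14. Of 9 lipid-associated macrophage genes 6 rose, of 7 T and NK cell genes 5 fell, and of 4 neutrophil genes 2 rose. The part of these cell types in the diet results was measured only by the settings with fewer myeloid transcripts given above.

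The difference between the diet effect in endothelial cells and that in other cells passed the threshold for 805 of 11135 genes (7.23%; the same edgeR test of the class by diet term, with library as a block). The term was above 0 for 701 (6.3%) and below for 104 (0.934%), and scaling by library totals turned that balance to 332 above and 1618 below, with the median of all genes at -0.34. Of 430 endothelial-enriched genes tested, 121 had a term above 0 and 5 a term below 0 past the threshold. Their median term was 1.11, against 0.06 over all genes. These genes were chosen partly by a low level in the other cells. The 8 gate genes took 0.00978 and 0.0126% of the other cells' UMIs on NCD and 0.00221 and 0.00462% on MCD. Pecam1 had a term of 1.81 ± 0.18 (adjusted p = 8.1e-07), with no diet call in endothelial cells and 22.3 and 28.2 CPM in other NCD cells and 7.97 and 8.34 CPM in other MCD cells. Slc40a1, the iron exporter ferroportin, measured 101 and 124 CPM in NCD and 151 and 125 CPM in MCD endothelial cells, and 11.8, 40.6, 3.04 and 3.75 CPM in other cells, a term of 3.55 ± 0.30 (adjusted p = 1.7e-07). Aqp1 had a term of 2.31 ± 0.43 (adjusted p = 0.0013), above the enriched genes' median of 1.11, with 3.43 to 8.13 CPM in other cells. Eng had a term of 1.07 ± 0.28 (adjusted p = 0.022), near that median and so not particular to Eng.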

How the data were processed

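Single-cell 3' v3 libraries of sorted liver cells were sequenced. The authors deposited UMI counts for each gene and barcode, made with Cell Ranger 3.0.2 per the file headers, against mm10 per the submitters' processing notes (no source used here gives the settings of cell calling). The 27998 genes shared by all libraries were used. Members, gene lists and tests were chosen with earlier results of these data known. Counts were summed per library over endothelial and over other cells and fitted with edgeR 4.0.16 (R 4.3.3; TMM, filterByExpr, quasi-likelihood F test, threshold 0.05); the 8 gate genes were not tested. The fits were tested on simulated data. DESeq2 1.42.0, scipy 1.17.1 and numpy 2.4.6 served alternatives and exact tests. No doublet caller was run; doublets were addressed by leaving out cells with Ptprc or Lyz2 UMIs. Intervals are exact Clopper-Pearson at 95% and cover counting error only. Shares were compared after thinning cells to 1000 UMIs. Named genes were the 12 largest rises and falls past the threshold with no overlap and at least 50 CPM in the higher diet, up to 4 largest changes per list, the 6 largest difference terms of each sign (50 CPM) and the 20 highest endothelial ratios; other named genes (Mrc1, Rspo3, Flt4, Prox1, Inhbb among them) stand in the lists. Genes that these rules also name but that do not appear are not reported here. Settings on myeloid share, endothelial scaling and GC were added after seeing the data. The 56 symbols on more than 1 identifier were left out of list counts.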

Additional observations from a re-analysis of the deposited data

Results flagged for a closer look

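For 11 genes named here the diet effect differed between endothelial and other cells beyond the spread of the libraries (edgeR quasi-likelihood test of the class by diet term, Benjamini-Hochberg adjusted). The values are log2 differences, endothelial minus other. The largest positive terms were those of the neutrophil genes S100a9 (4.93) and S100a8 (4.25). S100a9 measured 11.99, 49.0, 6.92 and 41.1 CPM in endothelial cells (NCD replicates 1 and 2, then MCD) and 1335, 1247, 166 and 20.9 CPM in other cells, with diet effects of -0.24 ± 0.58 and -4.19. Without MCD replicate 2 these terms were 1.12 and 1.23 and not past the threshold. The others above 0 were the fatty acid-binding Fabp1 (4.05), Dmd (3.97), the histidine decarboxylase gene Hdc (3.89) and the iron exporter Slc40a1 (3.55). Hdc measured 60.7, 36.1, 78.2 and 62.9 CPM in endothelial and 137, 262, 22.7 and 28.0 CPM in other cells. Fabp1 was at most 10.8 CPM in endothelial cells. Dmd fell in both classes, by more in the other cells, where its level was low. The Dmd term was 3.31 and not past the threshold without NCD replicate 2.

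The terms below 0 were those of Smad6 (-1.86), Fabp5 (-1.85), Mmp14 (-1.36), Ago3 (-1.34) and Cdc42ep2 (-1.22). Smad6, an inhibitor of BMP signals, measured 60.0, 92.0, 61.6 and 73.7 CPM in endothelial cells and 1.38, 3.31, 10.1 and 9.96 CPM in other cells. Mmp14, a membrane-bound matrix protease, measured 68.2, 50.6, 141 and 83.6 CPM against 6.88, 5.11, 47.3 and 29.4 CPM. Fabp5 measured 122 to 205 CPM in endothelial cells, with overlapping diets, and rose in other cells from 62.8 and 43.6 to 248 and 222 CPM. Ago3 was the gene of these that fell in endothelial cells (128, 144, 69.2 and 64.7 CPM; -1.11 ± 0.15). The causes were not tested.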

How the results depend on the processing

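The MCD minus NCD difference in the endothelial share (-10.8 percentage points) turned to 2.29 at a limit of 5% mitochondrial UMIs, was -2.52 with overlapping diets without Ptprc-positive cells, and otherwise stayed below 0 with the diets apart. The diet count (3173 genes) was 57 at that limit, 522 without Ptprc-positive cells, 153 without cells with Ptprc or Lyz2, 563 with thinning before gating, 747 with endothelial cells thinned after gating, 1477 by DESeq2, 1197 in cells of lower myeloid share and 1916 with the GC trend removed, and 1570 to 3002 without each library in turn (1570 without NCD replicate 2). With library totals 63.0% of calls were higher on MCD, against 54.6%, and with scaling on endothelial-enriched genes 2542 of 2903. The difference count (805) was 283 and 58 in the settings without Ptprc and without either gene, 1950 with library totals, 373 by DESeq2, 522 in cells of lower myeloid share, and 458 to 846 without each library (458 without NCD replicate 1). Fewer cells and genes enter the settings that leave out cells with Ptprc or Lyz2 UMIs. These settings lower the myeloid RNA without removing it: cells with neither gene had a median of 0.0506% of UMIs in the myeloid list. For the other settings the cause was not tested.

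Directions turned for these genes. At 5% mitochondrial UMIs Hist1h2ap was at 8.76, Amd1 at 0.0097, Polr2l at 0.64 and Ptprc at 0.083. Without Ptprc-positive cells Id2 was at -0.22, Klf4 at 0.43, Cd74 at -0.19, H2-Ab1 at -0.078 and Lyz2 at -0.12. Without cells of either gene Hpgd was at 0.15, Id3 at -0.00601, Id2 at -0.28 and Klf4 at 0.76. In cells of lower myeloid share Chil3 was at -0.36, Fn1 at -0.46 and Lyz2 at -0.81. Dll4 was at 0.0086 with thinning before gating and Stab2 at -0.44 with the GC trend removed. Across genes Spearman's rho of fold change and 3' GC content was 0.52. Of 90 genes named with a diet fold change, called or not, 90 kept their result with the replicate block. A result was kept when call and direction were the same, or when the gene was called in neither fit. That block gave 3103 genes past the threshold, and its numbers pair nothing (correlation of the deviations -0.03). By DESeq2 78 kept their result, and 71 did with the GC trend removed. Fewer did among those tested in the other settings: 10 of 80 at 5% mitochondrial UMIs, 37 of 58 without Ptprc-positive cells, 24 of 39 without either gene, 51 of 69 with thinning before gating, 62 of 74 with thinning after it and 63 of 81 in cells of lower myeloid share. No paired analysis was possible because the replicate number is already inside the library block, for the difference term. Endothelial depth, 1334241 UMIs in the smallest sum, limits genes of a few CPM.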
